A study of Mus musculus with 4 samples.

Results

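Fgf11, Fgf12, Fgf13 and Fgf14 are the 4 FGF homologous factor genes of the mouse, and their accessible chromatin was measured by ATAC-seq, in which the Tn5 transposase inserts sequencing adapters into open DNA. The members were every region of the tag count table that carries the name of 1 of these genes, each read by itself, together with the peaks of each library over the 4 gene bodies. This gave 17 of 29121 regions, with 1 for Fgf11, 7 for Fgf12, 4 for Fgf13 and 5 for Fgf14. The samples were neurospheres, in which neural progenitors grow as floating balls of cells, made from C57BL/6 mouse hippocampus at postnatal day 0 in medium with 20 ng/ml FGF2 and 20 ng/ml EGF and taken on day 7. Both groups carried hGFAPCre, a Cre recombinase driven by the human GFAP promoter, which is active in neural progenitors and astroglia. The 2 control libraries were hGFAPCre+, Fgf13+/y and the 2 Fgf13cko libraries were hGFAPCre+, Fgf13 flox/y, so that the groups differ in the floxed allele of Fgf13, an X-linked gene present once in these males. The design text calls the controls littermates. The cells of 1 mouse went into 2 wells, and no label gives the mouse of each culture. Each p-value below therefore measures library-to-library spread, which may be technical. The labels do not name the floxed exon, and the regions below therefore do not check the genotype labels.

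FGF homologous factors share the folded core of the fibroblast growth factors but stay inside the cell and do not act through FGF receptors. They bind the cytoplasmic tail of voltage-gated sodium channels and set how the channels inactivate and where they gather, above all at the axon initial segment of neurons. Fgf13 protein also stabilises microtubules in growing and migrating neurons. Variants of Fgf12 and Fgf14 in people cause epilepsy and a hereditary ataxia, while Fgf11 is the least studied of the 4. Each gene makes proteins with different N-termini from alternative first exons, so a single gene can have several start sites far apart.

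The genes differ greatly in size and all lie on the minus strand of mm10. Fgf11 covers 6877 bases (chr11:69796068-69802944), Fgf12 595461 bases (chr16:28157783-28753243), Fgf13 523434 bases (chrX:59062139-59585572) and Fgf14 703246 bases (chr14:123974441-124677686). RefSeq start-site windows of GRCm38.p6, which has the same chromosome coordinates, matched 10 start sites of the 4 genes, and the table's start sites at 69801716 for Fgf11 and 124677127 for Fgf14 had no such window. The 250 bases before 6 of these start sites are given 5′ to 3′ on the minus strand with each CG dinucleotide in capitals, since open and closed start sites differ in CG content across the genome. They are the start sites at the 5′ end of Fgf12 and Fgf13, 1 of the 2 open internal starts of Fgf13, the open internal start of Fgf14, the closed internal start of Fgf13 and the RefSeq start of Fgf11.
Fgf12 chr16:28753244-28753493, open in all 4 libraries: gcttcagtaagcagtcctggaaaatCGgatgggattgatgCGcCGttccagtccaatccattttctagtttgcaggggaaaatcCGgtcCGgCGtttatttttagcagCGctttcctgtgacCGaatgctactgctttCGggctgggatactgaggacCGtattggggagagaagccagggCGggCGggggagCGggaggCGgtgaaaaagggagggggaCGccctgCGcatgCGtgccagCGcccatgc
Fgf13 chrX:59134437-59134686, open in all 4 libraries: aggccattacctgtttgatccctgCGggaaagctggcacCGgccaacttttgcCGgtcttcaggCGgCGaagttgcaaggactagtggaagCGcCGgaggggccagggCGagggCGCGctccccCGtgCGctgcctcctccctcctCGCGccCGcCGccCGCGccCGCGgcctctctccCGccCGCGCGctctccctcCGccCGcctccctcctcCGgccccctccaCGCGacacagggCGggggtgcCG
Fgf13 chrX:59166089-59166338, no peak in any library: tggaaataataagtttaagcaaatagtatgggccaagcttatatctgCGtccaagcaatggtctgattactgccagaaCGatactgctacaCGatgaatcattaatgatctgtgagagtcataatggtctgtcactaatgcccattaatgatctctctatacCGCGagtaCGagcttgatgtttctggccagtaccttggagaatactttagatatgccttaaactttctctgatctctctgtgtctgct
Fgf13 chrX:59585573-59585822, no peak in any library: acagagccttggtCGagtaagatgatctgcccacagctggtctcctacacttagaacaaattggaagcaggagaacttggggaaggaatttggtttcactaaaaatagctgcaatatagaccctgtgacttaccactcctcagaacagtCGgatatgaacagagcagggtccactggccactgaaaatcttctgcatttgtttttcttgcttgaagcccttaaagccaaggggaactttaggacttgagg
Fgf14 chr14:124192547-124192796, open in all 4 libraries: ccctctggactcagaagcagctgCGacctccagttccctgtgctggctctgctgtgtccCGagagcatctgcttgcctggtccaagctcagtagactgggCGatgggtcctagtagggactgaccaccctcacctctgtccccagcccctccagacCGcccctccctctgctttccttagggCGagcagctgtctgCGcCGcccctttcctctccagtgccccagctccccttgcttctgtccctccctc
Fgf11 chr11:69802281-69802530, no peak in any library: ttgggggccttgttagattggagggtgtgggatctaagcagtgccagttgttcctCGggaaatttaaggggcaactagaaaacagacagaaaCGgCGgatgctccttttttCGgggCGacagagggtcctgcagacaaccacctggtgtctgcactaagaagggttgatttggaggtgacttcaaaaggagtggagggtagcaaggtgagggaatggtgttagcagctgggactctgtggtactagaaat
The open Fgf13 stretch at 59134437 holds 31 CG dinucleotides, the open Fgf12 stretch 18 and the open Fgf14 stretch 7. The closed Fgf13 stretches hold 6 and 2, and the Fgf11 stretch holds 5.

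Over the whole 300-base windows, each start site and the 50 bases after it included, 6 of the 10 member windows overlapped a region of the table. The 3 open Fgf12 windows had a ratio of observed to expected CpG of 0.724, 0.848 and 0.783, and the 2 open Fgf13 windows had 0.95 and 0.966. The open Fgf14 window, at 0.40, lay lower than these. Among the windows without a region, the ratio was 0.278 at Fgf11 and 0.492 and 0.187 at Fgf13, while the Fgf12 window at 28564951 had 0.949. That last start lies just upstream of the open Fgf12 start at 28564495. Over all 32851 RefSeq windows, 39.2% overlapped a region, with a median ratio of 0.781, against 0.22 in the windows without one. The members thus spread over the same range as other genes, with the open Fgf14 window below the median of open windows and the closed Fgf12 window at 28564951 above it.

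**Figure D1:**
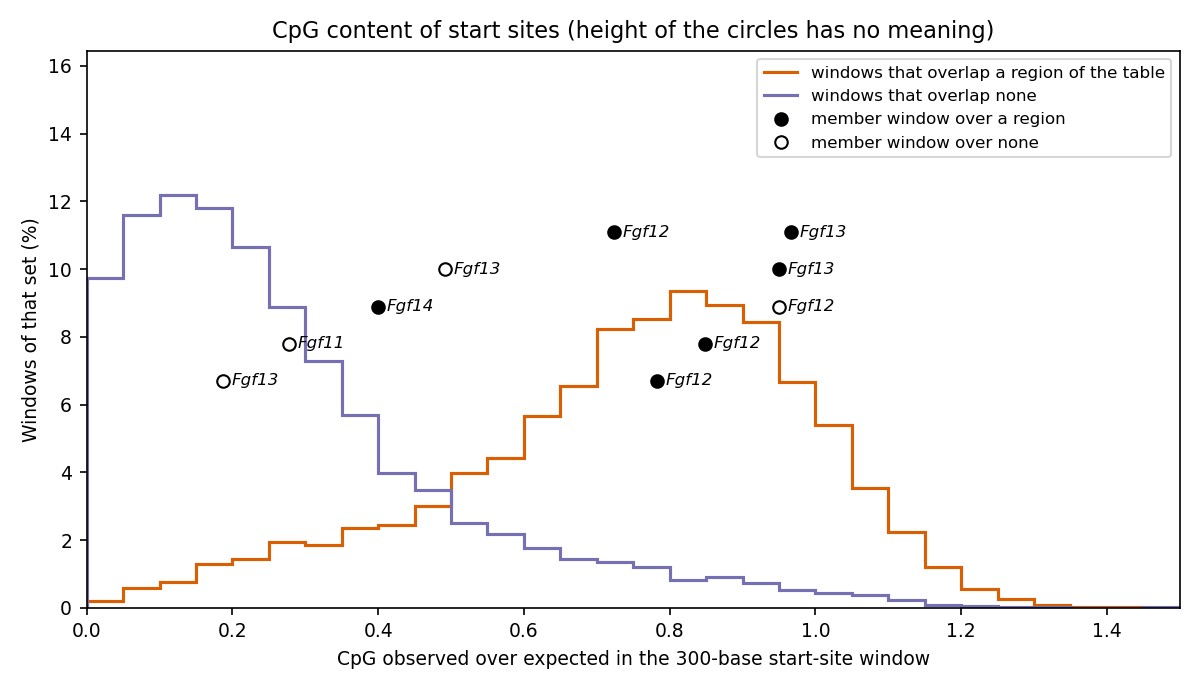
CpG content of start sites. The x axis is the ratio of observed to expected CpG in the 300-base RefSeq window, the lines give the share of windows (%) over a table region (orange) or over none (purple), and the circles mark the 10 member windows, filled where they overlap a region and placed at arbitrary heights; 5 of the 6 filled circles lie above 0.7 and the Fgf14 circle lies at 0.40.

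Short motifs were counted in these 10 windows on both strands, as a description of the letters. The SP1 motif GGGCGG was in 6 member windows (3 of Fgf12, 2 of Fgf13 and the Fgf14 window), against 35.7% of all windows. The NRF1 motif GCGCATGC was in the Fgf12 window at 28753243, against 2.71% of all windows, and the TATA motif TATAAA in the closed Fgf13 window at 59166088, against 13.6%. The AP-1 motif TGANTCA was in 2 member windows (7.81% of all), the E-box CAGCTG in 3 (16.3%), the E-box CATCTG in 1 (17.2%), the SOX motif ACAATG in 1 (12.6%) and the NFY motif CCAAT in 3 (37.4%). The CRE TGACGTCA (1.79% of all) and the NFI motif TTGGCA (14.1%) were in 0 of the 10. None of these motifs contains another, and their matches may overlap.

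The libraries held 13.1 to 26.0 M tags in all, of which 2.55 to 3.25 M fell in nuclear regions, with a median of 57 to 72 tags per region. The mitochondrial regions took more of all tags in the controls (23.4% and 27.0%) than in Fgf13cko (9.54% and 9.19%). Of the neural progenitor markers, 9 of 10 had a start-site region, among them Sox2, Nes and Pax6, while Notch1 had none. Summed over that list the controls had normalised counts of 1861 and 2156 and Fgf13cko of 2372 and 1953, and 0 of its 9 regions passed the edgeR test (2 at an unadjusted p under 0.05, 1 called by the DESeq2 Wald test). A start-site region was also present for 5 of 8 neuron, 4 of 6 astrocyte and 5 of 8 oligodendrocyte markers. The same held for 1 of 6 microglia, 2 of 6 endothelial and pericyte and 2 of 6 meningeal fibroblast markers. The neuron markers without one were Rbfox3, Dcx and Stmn2, and the astrocyte markers without one were Gfap and Aqp4.

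Of the 17 member regions, 16 passed the filter on low counts and were tested. In Fgf13cko 1 of them rose and 2 fell at an adjusted p under 0.05 (edgeR quasi-likelihood test, Benjamini-Hochberg adjustment over 28801 regions). Over all regions 7.84% were called, 6.2% as rising and 1.64% as falling. The median log2 fold change of the 16 was 0.017, with 9 above 0 and 7 below, beside a median of -0.00062 over all tested regions. In 8 of the 16 the normalised counts of the groups did not overlap, against 53.7% of all regions, so non-overlap alone was as frequent elsewhere. A start-site region is one whose edge lies within 1 kb of a start site given in the table. Among these, 2 of 8 member regions were called, beside 2.18% of all start-site regions.

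**Figure D2:**
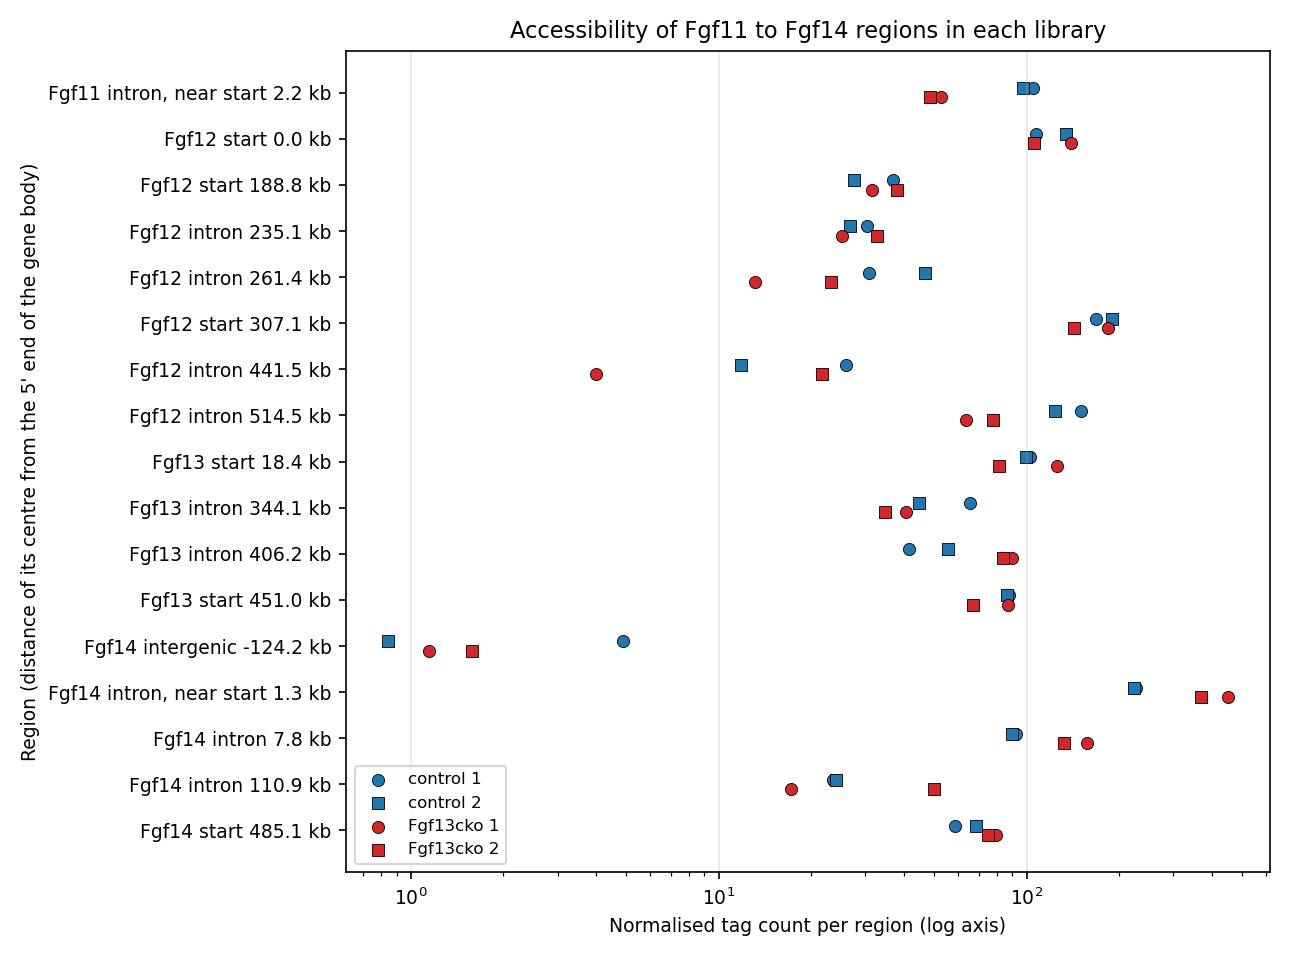
Normalised tag counts of the 17 regions in each library. The x axis is the tag count divided by the relative library size (log axis), rows are regions ordered by gene and by the distance of their centre from the 5′ end of the gene body (kb), colours mark the groups and symbols the replicates; the Fgf11 region is lower, and the Fgf14 region nearest its 5′ end higher, in both Fgf13cko libraries than in both controls.

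Fgf11, the smallest of the genes, had 1 region, and it was less open in Fgf13cko. The region (chr11:69800240-69801161, 922 bases) lies in an intron, with its centre 1016 bases downstream of the table's start site, and no RefSeq start lies inside it. Its normalised count was 105 in control 1, 97.2 in control 2, 52.7 in Fgf13cko 1 and 48.5 in Fgf13cko 2. Both Fgf13cko libraries lay at about the same level and well under both controls. The mean was 101 ± 5.70 (SD, n = 2) in the controls and 50.6 ± 2.99 in Fgf13cko, a log2 fold change of -1.0 (SE 0.22, adjusted p = 0.0302). This value stood at percentile 4.34 of all tested regions. The authors' fold enrichment of the Fgf11 peak was 4.17 in control 1, 4.93 in control 2, 2.88 in Fgf13cko 1 and 3.46 in Fgf13cko 2. The call did not hold in the DESeq2 Wald test (-1.02, adjusted p = 0.112) or with edgeR without control 1 (-0.94, adjusted p = 0.328) or without control 2 (-1.06, adjusted p = 0.240). With scaling by library size only, in which the mitochondrial tags count as depth, it was -0.041 (adjusted p = 0.888). With the mitochondrial regions left out before scaling it was -1.03 (adjusted p = 0.0277).

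A second Fgf11 peak (chr11:69802675-69803211) lies upstream of the RefSeq start at 69802280 and spans the 5′ end of the gene body at 69802944. This peak was called in control 2 and Fgf13cko 1 and is outside the count table. Its fold enrichment was 2.93 and 3.25, against 4.93 and 2.88 at the intronic peak in the same libraries, so that the intronic peak was the higher one in control 2 and the lower one in Fgf13cko 1. The 3 genes whose start-site region was most like the Fgf11 region over the 4 libraries were Ankrd50, Anxa5, which encodes the phospholipid-binding annexin A5, and Map4k4, a kinase gene. Likeness was the Euclidean distance of mean-centred log2 normalised counts, at 0.0509, 0.0553 and 0.0911, and 31 of 11711 start-site regions lay within 0.2.

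Fgf12, whose product binds sodium channels in brain and heart, had 3 start-site regions that did not pass the test and 4 intronic regions, of which 1 fell. The start-site region at the 5′ end of the gene (chr16:28752826-28753757), whose sequence is the first given above, held 107, 134, 140 and 105 normalised counts in control 1, control 2, Fgf13cko 1 and Fgf13cko 2. The groups spanned the same range, with a log2 fold change of 0.018 (SE 0.22, adjusted p = 0.974). The region around the start at 28446075 (chr16:28444985-28447314) held 168, 190, 185 and 142 in the same order, and again the groups overlapped (-0.13, adjusted p = 0.750). The weakest of the 3, around the start at 28564495 (chr16:28564112-28564777), held 36.7, 27.5, 31.5 and 37.9, also overlapping (0.13, adjusted p = 0.882). Summed over the 3 start sites the count was 325 ± 22.9 (SD, n = 2) in the controls and 325 ± 19.6 in Fgf13cko (log2 fold change -0.0044, SE 0.14, adjusted p = 0.99).

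The Fgf12 region that fell lies far downstream, in an intron near the 3′ end (chr16:28238232-28239232). It overlaps Gm52250, a long non-coding RNA gene on the opposite strand (chr16:28238158-28246668) whose start lies 74 bases outside the region. The normalised count was 150 in control 1, 123 in control 2, 63.6 in Fgf13cko 1 and 78.0 in Fgf13cko 2. Both Fgf13cko libraries lay under both controls, at 70.8 ± 10.2 (SD, n = 2) against 137 ± 18.7. The log2 fold change was -0.94 (SE 0.22, adjusted p = 0.0349). Per length the controls held 136 ± 18.7 normalised counts per kb here, within an SD of the 129 ± 20.3 at the 5′ start of Fgf12. The call did not hold in the DESeq2 Wald test (adjusted p = 0.0817) or with edgeR without control 1 (adjusted p = 0.362) or control 2 (adjusted p = 0.158), and without TMM, on library size alone, the sign turned (0.034, adjusted p = 0.908).

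The other 3 intronic regions of Fgf12 were shallow. The one at 28491606 held 30.8, 46.9, 13.2 and 23.2 normalised counts in control 1, control 2, Fgf13cko 1 and Fgf13cko 2. Its groups did not overlap, but the difference did not pass (log2 fold change -1.08, SE 0.47, adjusted p = 0.210). The region at 28517779 held 30.4, 26.6, 25.2 and 32.7 (0.016, adjusted p = 0.989), and the one at 28311567 held 26.0, 11.8, 4.01 and 21.6 (-0.51, SE 0.82, adjusted p = 0.769). In the last, a single library, Fgf13cko 1, stood far below the other 3. When single libraries were left out, its log2 fold change lay between -1.97 (without Fgf13cko 2) and 0.18 (without Fgf13cko 1). The authors' fold enrichment there goes against the counts, with Fgf13cko 1 the highest (5.72, against 4.24 in control 1, 3.04 in control 2 and 4.07 in Fgf13cko 2). With single libraries left out, the log2 fold change of the region at 28491606 lay between -1.53 (without Fgf13cko 2) and -0.76 (without control 2).

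Fgf13, the gene floxed in Fgf13cko, had 4 regions and none passed the edgeR test, with 1 at an unadjusted p under 0.05 and 0 called by the DESeq2 Wald test. Of its 4 RefSeq starts, those at 59134436 and 59567348 were open in all 4 libraries, and those at 59166088 and 59585572, the 5′ end of the gene body, had no peak in any library. At 59567348, in the annotated 5′ UTR (chrX:59566138-59568294), control 1 and 2 held normalised counts of 103 and 99.7, and Fgf13cko 1 and 2 of 125 and 81.2. At 59134436 (chrX:59133646-59135567) they were 87.6, 86.6, 87.1 and 66.9 in the same order. In both regions the controls were nearly equal, the Fgf13cko libraries lay apart, and Fgf13cko 2 was the lowest. The log2 fold changes were 0.029 (SE 0.24, adjusted p = 0.960) and -0.18 (SE 0.23, adjusted p = 0.705), and the sum of both gave -0.018 (SE 0.16, adjusted p = 0.970). On library size alone, where the median of all regions moved to 0.97, both start-site regions passed as rises (0.98, adjusted p = 0.00508, and 0.78, adjusted p = 0.0149).

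Between these starts lie 2 intronic Fgf13 regions with groups that did not overlap. The region at chrX:59178885-59179789 holds the start of Gm36570, a long non-coding RNA gene on the opposite strand (chrX:59179292-59191608). Its counts were 41.6 and 55.8 in the controls against 89.4 and 83.8, so Fgf13cko was the higher pair. The log2 fold change of 0.83 (SE 0.25) did not pass in edgeR (adjusted p = 0.0848) or in the DESeq2 Wald test (0.82, adjusted p = 0.304). With single libraries left out it was 0.64 to 1.08, at 0.76 without Fgf13cko 1 and 0.86 without Fgf13cko 2. With library size as the only scaling, edgeR gave 1.80 (adjusted p = 0.000906). The region at chrX:59241102-59241909 held 65.6 and 44.8 in the controls against 40.7 and 34.8 in Fgf13cko (-0.53, SE 0.32, adjusted p = 0.375). Here the higher pair was the controls, so the neighbouring intronic Fgf13 regions differed in sign without either passing.

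Fgf14, which is expressed in neurons and sets the firing of cerebellar and hippocampal cells, was more open at its 5′ end in Fgf13cko. The region over the upstream start at 124677127 (chr14:124675015-124677853) was the widest of the members, at 2839 bases. Its normalised count was 226 in control 1, 224 in control 2, 450 in Fgf13cko 1 and 368 in Fgf13cko 2. The controls were nearly equal, and both Fgf13cko libraries lay well above them. The mean rose from 225 ± 1.86 (SD, n = 2) to 409 ± 58.3, a log2 fold change of 0.86 (SE 0.19, adjusted p = 0.0303), at percentile 91.3 of all tested regions. The authors' fold enrichment over this interval did not move with the counts, at 4.79 in control 1, 5.23 in control 2, 3.70 in Fgf13cko 1 and 5.10 in Fgf13cko 2. The call passed in the DESeq2 Wald test (adjusted p = 0.00770) and with the mitochondrial regions left out (0.83, adjusted p = 0.0363). Without control 1 or control 2 the log2 fold change was 0.87 and 0.85, and the call did not hold (adjusted p = 0.428 and 0.474).

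The next Fgf14 region, in an intron 7209 bases downstream of that start (chr14:124669439-124670397), held 92.5, 90.0, 157 and 132 normalised counts in control 1, control 2, Fgf13cko 1 and Fgf13cko 2. It showed the same order of libraries as the start-site region, and its difference did not pass (0.67, SE 0.20, adjusted p = 0.0750). It passed with a filter of at least 50 tags per library on average (adjusted p = 0.0499). Without Fgf13cko 2 its log2 fold change was 0.78. Around the internal start at 124192546 (chr14:124192001-124193089) the counts were 58.8 and 68.5 in the controls against 79.6 and 74.8 for Fgf13cko. The groups did not overlap there, but lay closer together (0.28, SE 0.23, adjusted p = 0.527). The intronic region at 124566530 held 23.5, 24.1, 17.2 and 50.1, so that the Fgf13cko libraries lay on either side of the controls (0.53, adjusted p = 0.625). Its log2 fold change was 1.07 without Fgf13cko 1 and turned negative without Fgf13cko 2 (-0.46). The authors' fold enrichment there was 4.51 in control 1, 5.33 in control 2, 7.57 in Fgf13cko 1 and 7.29 in Fgf13cko 2. Fgf13cko 1 was thus the lowest by counts and the highest by enrichment. All 4 tested Fgf14 regions had a log2 fold change above 0, with 1 past the threshold.

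Summed over both start sites, Fgf14 held 282, 284, 505 and 482 normalised counts in control 1, control 2, Fgf13cko 1 and Fgf13cko 2. The log2 fold change of the sum was 0.80 (SE 0.14, adjusted p = 0.0118), and that of the Fgf11 start-site sum was -0.95 (SE 0.21, adjusted p = 0.0385). Thus 2 of the 4 start-site sums were called, beside 2.74% of 11306 genes. The Fgf11 sum holds only its 1 region and the Fgf14 sum mostly its upstream region, both called above. These calls are therefore not independent of the region calls. Without control 1 or control 2 neither sum passed, with an adjusted p of 0.591 and 0.508 for Fgf14 and 0.616 and 0.507 for Fgf11. In the DESeq2 Wald test the Fgf14 sum passed (adjusted p = 0.00162) and the Fgf11 sum did not (-0.95, adjusted p = 0.269).

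**Figure D3:**
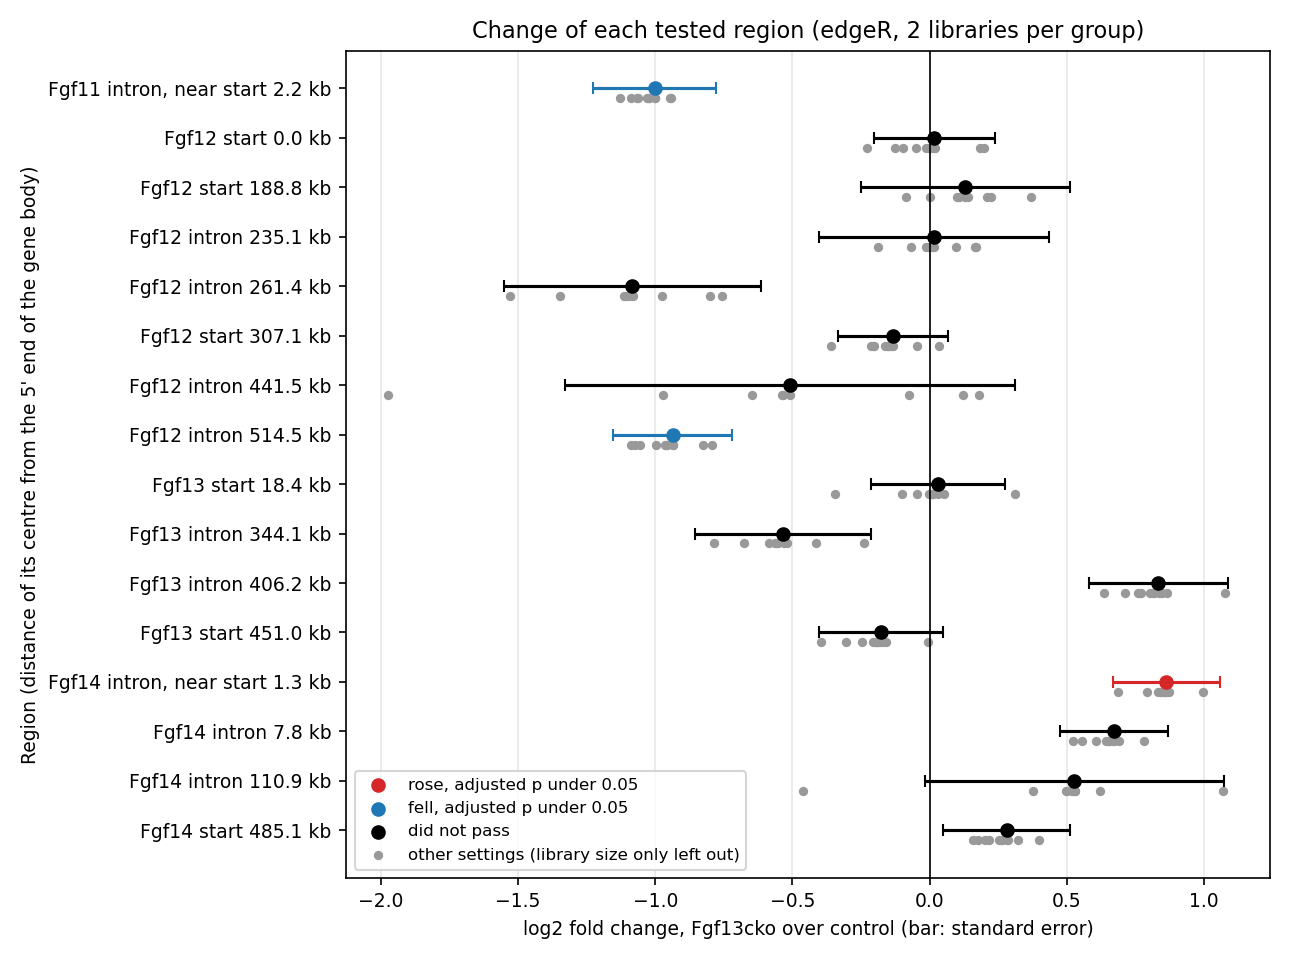
Log2 fold change of the 16 tested regions, Fgf13cko over control. Points and bars are the edgeR estimate and its standard error with 2 libraries per group, red rose, blue fell and black did not pass, and grey points are other settings apart from scaling by library size only; under these the Fgf11 region and the called Fgf12 region stay between -1.13 and -0.79 and the Fgf14 start-site region at 0.69 or above.

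Whether the start sites of a gene moved apart was read from the log2 ratio of their normalised counts within a library, for 5 pairs of start-site regions. For Fgf14 the upstream over the internal start gave 1.94 and 1.71 in the controls, beside 2.50 and 2.30 for Fgf13cko. Both Fgf13cko ratios were above both control ratios, by 0.57 on average (exact two-sided permutation test, p = 0.333, adjusted p = 0.556 over 5 pairs). With 2 libraries against 2 the smallest p that this test allows is 0.333, so it cannot pass. For Fgf13 the start at 59567348 over that at 59134436 gave 0.23 and 0.20 in the controls against 0.53 and 0.28 in Fgf13cko, a difference of 0.19 (exact p = 0.333). The 3 Fgf12 pairs differed by -0.10, 0.16 and 0.26 (exact p = 0.667, 0.333 and 0.667).

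The 3 genes whose start-site region was most like the upstream Fgf14 region were Trf, the transferrin gene, Gm15941, a predicted gene, and Shc4, which encodes an adaptor of receptor tyrosine kinases. Their distances were 0.0400, 0.0461 and 0.0484, and 96 of 11711 start-site regions lay within 0.2. Some start-site regions of neuron markers rose in Fgf13cko as well. Of all start-site regions, 2.18% were called in either direction. Of the neuron list, 5 of 8 genes had a start-site region, and 3 of its 7 regions rose, in Elavl4, an RNA-binding protein gene (1.19, adjusted p = 0.0111), Map2, a dendritic microtubule protein gene (1.24, adjusted p = 0.0197), and Syt1, a synaptic vesicle calcium sensor gene (0.89, adjusted p = 0.0334). Summed over the list, normalised counts were 542 and 572 in the controls against 969 and 923. Of the oligodendrocyte list, 5 of 8 genes had a start-site region and 1 of 5 regions fell, in Gpr17, a receptor of oligodendrocyte precursors (-1.15, adjusted p = 0.0303), with sums of 619 and 699 against 750 and 573. Of the start-site regions of the other lists, 0 of 4 astrocyte, 0 of 1 microglia, 0 of 2 endothelial and pericyte and 0 of 2 meningeal fibroblast regions passed. None of these had an unadjusted p under 0.05 in edgeR or was called by the DESeq2 Wald test, which called 2 neuron and 0 oligodendrocyte regions. The part of these cell types in the Fgf14 and Fgf11 results was not tested. In bulk cultures more cells of a type and more open chromatin per cell cannot be told apart.

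Compared per length, 4 of the 8 start-site regions of the members lay under the lower quartile of all start-site regions and none above the upper. In the controls the start-site regions ran from Fgf12 at 28752826 (129 ± 20.3 normalised counts per kb, SD, n = 2) through Fgf11 (110 ± 6.18), upstream Fgf14 (79.2 ± 0.654), Fgf12 at 28444985 (76.9 ± 6.48), internal Fgf14 (58.4 ± 6.31) and Fgf12 at 28564112 (48.2 ± 9.82) to Fgf13 at 59566138 (47.0 ± 1.01) and at 59133646 (45.3 ± 0.368). The first and second of these, the upstream Fgf14 and the Fgf12 region after it, and the last Fgf12 region and the Fgf13 region at 59566138 did not differ by more than the larger of their SDs. The median over all start-site regions was 96.8, with the middle of the distribution from 62.5 to 161. Both Fgf13 starts, the internal Fgf14 start and the Fgf12 start at 28564112 thus lay under its lower quartile. Fgf13 is present once in these males, and the counts per kb were not corrected for copy number. Both its start-site regions are also wide, at 2157 and 1922 bases against a median of 1000.5 over all start-site regions. In Fgf13cko the Fgf11 region stood at 54.9 per kb and the upstream Fgf14 region at 144, which turns their order. For their length the 3 long genes held a usual number of regions. Protein-coding genes of 500 to 750 kb, 116 in all, held a median of 4 regions over the body (0 to 17), and Fgf12 held 7, Fgf13 4 and Fgf14 4.

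The peak lists, called in each library by itself, add regions that are not in the count table. Over the 4 gene bodies they held 20 peaks in control 1, 22 in control 2, 26 in Fgf13cko 1 and 23 in Fgf13cko 2, of 38006, 47148, 64954 and 54373 peaks in all. Merged, they formed 32 intervals, of which 16 (50%) had a peak in all 4 libraries and 10 (31.3%) in a single one, against 36.4% and 31.9% of 80071 intervals in the genome. Most of the intervals outside the table were in Fgf14, where 12 of 16 were not in it. Of these 16, 4 had a peak in all 4 libraries and 8 in a single one, beside the genome shares of 36.4% and 31.9%. Fgf12 had 7 of its 9 intervals and Fgf13 4 of its 5 open in all 4 libraries. Over the genome 29121 intervals had a peak in all 4 libraries, the same number as the table has regions. Of the member intervals, the 16 in all 4 libraries are in the table and the other 16 are not. A peak in all 4 libraries thus appears to be how regions entered the table, and is no result for a table region. Intervals with a peak in fewer libraries were not tested.

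Peaks of both Fgf13cko libraries and no control lay over 2 intervals, against 12.3% of intervals in the genome. One was in Fgf13 (chrX:59290918-59291310), with the authors' fold enrichment of 3.52 and 4.12. The other was in Fgf14 (chr14:124634885-124635758), with 3.32 and 4.09. A single interval, in Fgf14 (chr14:124163759-124164307), had peaks in both controls (fold enrichment 4.12 and 5.19) and in no Fgf13cko library, as 1.77% of intervals in the genome did. The -log10 q of these peaks was between 1.74 and 5.52, and a missing peak in a list is not a measured absence of open chromatin.

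**Figure D4:**
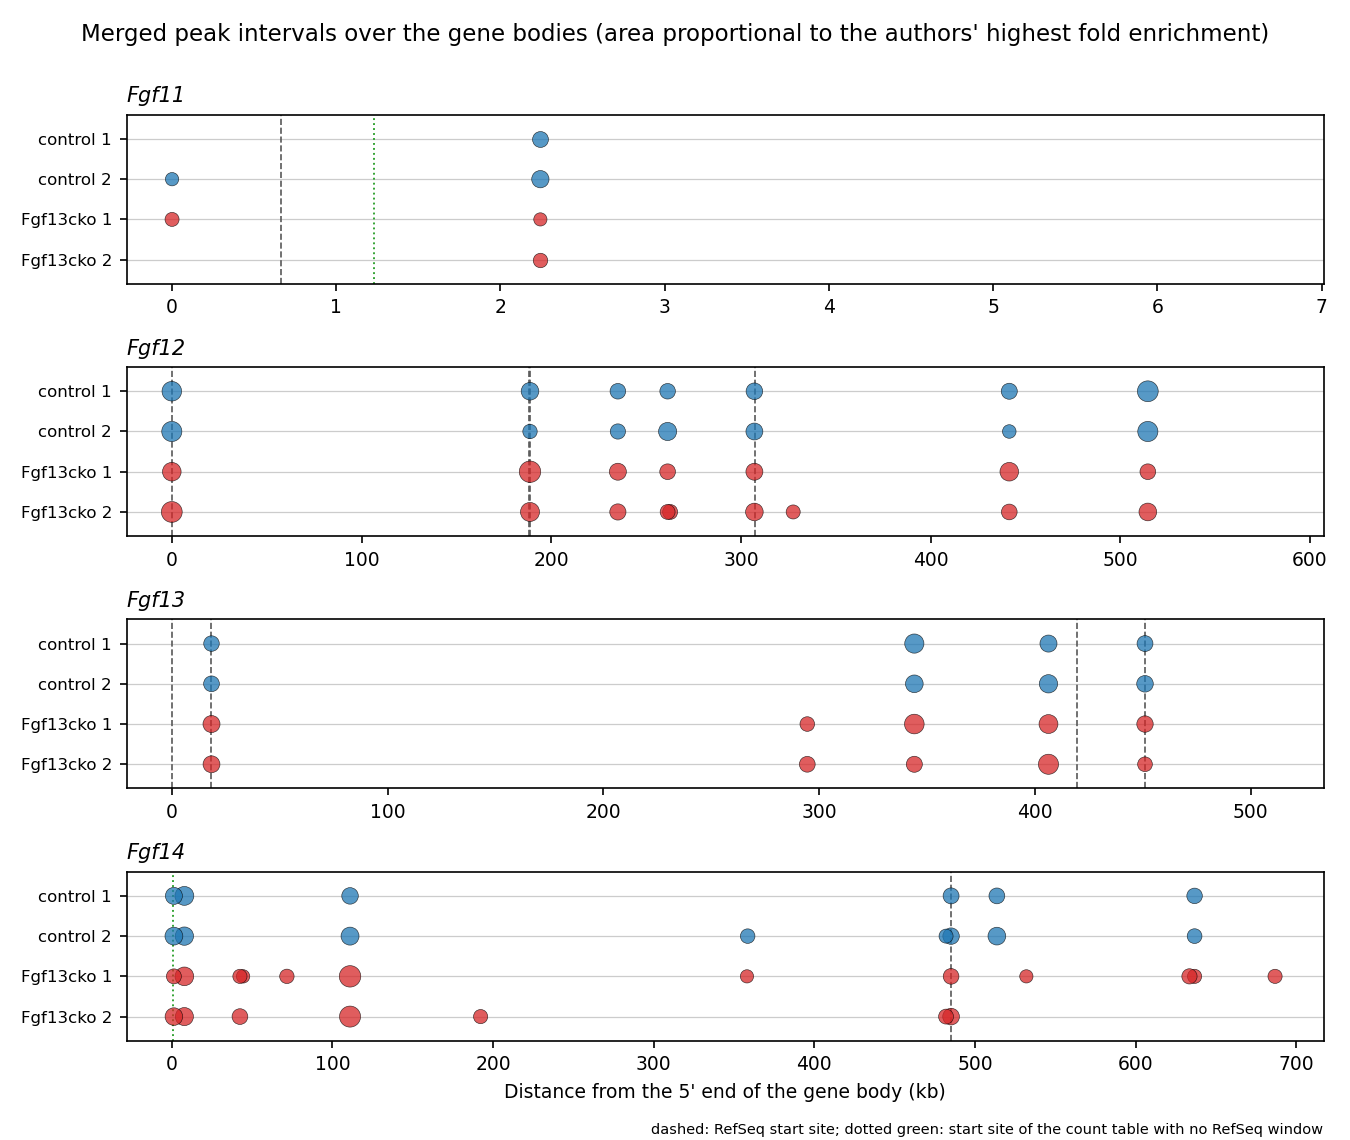
Peaks over the 4 gene bodies in each library. The x axis is the distance from the 5′ end of the gene body (kb, a different scale for each gene), each circle is a merged interval with a peak in that library, its area proportional to the authors' highest fold enrichment there, dashed lines are RefSeq starts and dotted green lines the table's starts without a RefSeq window; the Fgf13 starts at 59585572 (0 kb) and 59166088 carry no circle in any library.

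The last member, an intergenic region given to Fgf14 (chr14:124801554-124802243), lies over a simple repeat, (TTAGGG)n, outside the gene body. It held 5.0, 1.0, 1.0 and 1.5 tags in control 1, control 2, Fgf13cko 1 and Fgf13cko 2 and did not pass the filter on low counts.

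Regions of the genes for partners of FGF homologous factors passed the test in 1 of the 4 partner lists, that of the axon initial segment and its anchors. Of the sodium channel alpha subunit genes, 3 of 10 had a tested region and 0 of 4 regions passed, with Scn8a, the main channel of the axon initial segment, nearest to it (0.57, adjusted p = 0.222). Of the beta subunit genes, 2 of 4 had a tested region and 0 of 2 passed (Scn3b 0.49, adjusted p = 0.256). Of 9 genes for ankyrins, spectrins, adhesion molecules and potassium channels of the axon initial segment, 8 had tested regions, and 4 of 41 regions rose, in 3 genes, and 1 fell, with a median log2 fold change of 0.26. Of 11 genes for other partners and kinases, 9 had tested regions and 0 of 18 passed (median -0.086), with Nalcn, a sodium leak channel gene, nearest to it (0.75, adjusted p = 0.114). In the lists without a call, regions at an unadjusted p under 0.05 in edgeR numbered 0, 0 and 4, and the DESeq2 Wald test called 0 in each, and 2 of the 41 in the axon initial segment list. Over the 34 partner genes 7.69% of 65 regions were called, close to the 7.84% of all regions.

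Among the anchoring genes the largest rise was in an intron of Ank2, which encodes ankyrin-B. That region (chr3:127019050-127019683) held 35.3, 34.2, 110 and 134 normalised counts in control 1, control 2, Fgf13cko 1 and Fgf13cko 2 (1.82, SE 0.24, adjusted p = 0.00495). The start of Cntn1, a gene for the adhesion molecule contactin 1, rose from 26.9 and 27.9 to 88.8 and 60.6 (1.44, adjusted p = 0.0265). An intron of Ank3, the gene of ankyrin-G that assembles the axon initial segment, rose from 85.7 and 70.6 to 155 and 140 (0.91, adjusted p = 0.0303). A start of Nfasc, which encodes neurofascin, fell from 55.8 and 50.3 to 10.3 and 17.4 (-1.95, adjusted p = 0.0238). In each of these regions, picked because they passed the test, both Fgf13cko libraries lay on 1 side of both controls. The same held for 53.7% of all tested regions. The neuron marker sums given above were also higher in both Fgf13cko libraries, and the part of neurons in the rises was not tested.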

How the data were processed

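Chromatin accessibility was measured by ATAC-seq in 2 control and 2 Fgf13cko neurosphere libraries, grouped and numbered by the sample titles. Per the file headers, the authors deposited estimated counts, tags that HOMER assigned to 29121 merged regions of mm10 without normalisation, and a list of broad peaks per library. In these deposited lists each peak has a score, a fold enrichment (ratio) and the -log10 of its p and q. Tools named in the submitters' processing notes are HOMER, MACS2, Bowtie2, Picard and DESeq2. Their versions, the transposase shift and how duplicate reads were treated, on which counts can depend, are not given in the sources used. Since 50.2% of the values are whole, all were rounded. The 2 mitochondrial regions name no gene and stayed in the library size.

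Regions were tested with edgeR 4.0.16 in R 4.3.3 (TMM, filterByExpr, robust glmQLFit, glmQLFTest, two-sided, no covariate, all 4 libraries), with Benjamini-Hochberg adjustment over 28801 regions and a threshold of 0.05. Start-site regions within 1 kb of a start site in the table were also summed per gene and fitted in the same way. SE is the log2 fold change divided by the root of F. Tags divided by the relative effective size of the library are called normalised counts. The common BCV (biological coefficient of variation) of regions was 0.191. The fits were tested on simulated data. Alternatives were DESeq2 1.42.0, other scalings (a loess offset with limma 3.58.1 among them), other filters, a replicate block and leaving out each library. Peak intervals were merged where they shared 1 base. Sequences and gene bodies are from RefSeq GRCm38.p6.

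Every member region is named, with the partner genes past the threshold (up to 4 per list, otherwise the one with the smallest p) and the 3 genes most like each called start-site region. The members, lists and tests were chosen with earlier results of these data known. Proteins were not compared here.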

Additional observations from a re-analysis of the deposited data

How the results depend on the processing

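Of the 16 tested member regions, 3 were called, against 8 with library size as the only scaling, 1 in the DESeq2 Wald test and 3 with the replicate block. Leaving out 1 library each gave 0 to 7, with 0 without control 1 or control 2 (3 member regions at an unadjusted p under 0.05 in edgeR each time), 5 without Fgf13cko 1 and 7 without Fgf13cko 2. There the lone library is assumed to vary like the other group. Over all regions the count of 2258 became 17704 with library size only, where 99.7% of the calls rose and the median of all regions moved to 0.97, and 224 to 10086 with 1 library left out. The share of calls that rose was 79.1%, 64.9% with the loess offset, 58.9% without Fgf13cko 1 and 50.6% without Fgf13cko 2. With library size only, the Fgf12 region at 28238232 had 0.034 in place of -0.94. The 2 called start-site sums became 1 in the DESeq2 Wald test, that of Fgf14, and 0 to 2 with 1 library left out. The difference in the Fgf14 ratio was 0.45 to 0.69 with 1 library left out, an alternative chosen after seeing the data. The 32 peak intervals became 15 at a -log10 q of at least 5, and a reciprocal overlap of 50% gave 7 intervals shared by all libraries in place of 16.

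The replicate numbers share only a number between groups. Deviations of same-numbered libraries correlated at -0.24 over 28801 regions, and the replicate block called 2808 regions. The crossed pairing, chosen after seeing the data, called 5 member regions and 3817 in all. The cause of these shifts was not tested. Among the shallow regions, 4 of Fgf12 and that of Fgf14 at 124566530 gave no value with the stricter filter of 50 tags or in DESeq2. The Fgf13 region at 59241102 gave none with that filter, and had -0.56 in the DESeq2 Wald test (adjusted p = 0.663).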

Other observations

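Regions of other genes near the members gave the following values. Within 10 kb of Fgf11, the region at the 3′ end of Chrnb1, a muscle acetylcholine receptor subunit gene (chr11:69795304-69795916), held 81.3, 75.2, 48.1 and 70.1 normalised counts in control 1, control 2, Fgf13cko 1 and Fgf13cko 2 (log2 fold change -0.41, adjusted p = 0.406, edgeR). The region at G630025P09Rik on the other side (chr11:69803747-69804235) held 52.9, 31.3, 17.2 and 31.6 (-0.77, adjusted p = 0.365). Neither passed, and both were lower in the mean of Fgf13cko, as the Fgf11 region was. Within 1 Mb of Fgf11, the 74 regions of other genes had a median of -0.35 (log2 fold change), with 1 that rose and 1 that fell. The flanks of Fgf12 held 17 such regions (median 0.042, 0 called), those of Fgf13 3 (0.14, 0 called) and those of Fgf14 9 (-0.052, 1 rose and 2 fell).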
